A study of Bos taurus with 38 samples.

Results

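A set of 10 developmental transcription factors is described here in the RNA of cattle cumulus cells and of the oocytes those cells surround. They are HOXA9, HOXC5, ISL1, MSX1, MSX2, PAX5, TFAP2A, MYOG, MYT1L and TRPS1, 10 of the 27607 gene identifiers in the count tables, and they were chosen by name with earlier results of the same libraries known. HOXA9, ISL1, MSX1, PAX5, TFAP2A, MYOG, MYT1L and TRPS1 were chosen by their log2 fold change between cumulus cells of BCB positive and BCB negative oocytes, so their values in that comparison are given as a description with no test. HOXC5 and MSX2 were chosen by their correlations between oocytes and cumulus cells. The rule is a list of names and has no threshold, so no gene lies just outside it.

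The libraries come from 19 cumulus-oocyte complexes aspirated from antral follicles of abattoir ovaries, each split into 1 oocyte library and 1 library of its cumulus cells, which gave 38 libraries. The stain brilliant cresyl blue (BCB) loses its color where glucose-6-phosphate dehydrogenase is active, as it is in oocytes that are still growing. The ooplasm stayed blue in 9 complexes (BCB positive) and was not blue in 10 (BCB negative), and no culture, drug or genetic change sets the classes apart. The class is that of the oocyte, so each cumulus library carries the class of the oocyte it surrounded. Breed, age and donor cow were not used here, several complexes may come from 1 cow, and the spread between complexes is the error behind every p-value.

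Developmental transcription factors bind DNA in the regulatory regions of other genes and set which lineage a cell takes, and most of them are best known from the embryo. HOX proteins give position along the body axis, MSX and ISL1 proteins are homeodomain factors of limb, heart, motor neuron and craniofacial development, and PAX5, MYOG and MYT1L are known from B lymphocytes, skeletal muscle and neurons. Cumulus cells are granulosa cells and are known for another set of factors, among them FOXL2, NR5A2, GATA4 and GATA6.

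Cumulus library totals ran from 3585944 to 10430148 counts in the BCB positive class, with a median of 5853816, and from 1103200 to 8013318 in the BCB negative class, with a median of 2252271. Oocyte totals were 8886070 to 29810354 counts. The 13 protein-coding genes of mitochondrial DNA held 0.966% to 2.86% of the counts of BCB positive cumulus libraries and 1.17% to 17.4% of those of BCB negative ones. Complexes are numbered in 3 runs: 6 to 24 hold 3 BCB positive and 1 BCB negative complexes, 65 to 74 hold 6 and 3, and 86 to 91 hold 6 BCB negative complexes and no BCB positive one, so run and class cannot be told apart there. No library was identical to another. Of 10 named granulosa transcription factors, EMX2, NR5A2, GATA6 and FOXL2 had the lowest log2 fold changes, oocyte over cumulus, at -6.64, -6.37, -6.15 and -5.95. EMX2, GATA6 and FOXL2 were kept for testing through cumulus cells alone, which set their direction. Of the 7 kept for testing in both compartments, 5 were lower in oocytes (edgeR quasi-likelihood, Benjamini-Hochberg FDR under 0.01), where 44.6% of genes with a symbol kept in both were. CEBPB was higher in oocytes (2.18, SE 0.23, FDR 4.14e-11), and NR2F2 was not called (-0.41, SE 0.16, FDR 0.0161). Of the marker lists for skeletal muscle (27 genes), B lymphocytes (10) and leukocytes (12), no gene had a symbol in the name tables used here, so those cell types were not checked.

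Levels are counts of a gene per 1000000 counts of its library (CPM), which is not corrected for gene length, so levels are compared between samples of 1 gene and not between genes. A count of 3, taken as the floor of detection, corresponds to 0.288 to 2.72 CPM across cumulus libraries, and these limits cover counting error only. Genes above 2 CPM in 9 or more libraries of a compartment were kept for testing. In cumulus cells 9 of the 10 factors passed, MSX2 being the exception, and 6 passed in oocytes, where HOXC5, PAX5, TFAP2A and MYOG did not. ISL1 exceeded 2 CPM in 9 cumulus libraries, MSX1 and TFAP2A in 10, and HOXA9 in 11, most of them BCB negative, so passing the filter already depended on the class in which they were high. MYOG, MYT1L and TRPS1 exceeded it in all 19.

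Of the 10 factors, 3 were transcripts of the oocyte far more than of the cumulus cells, which goes against a reading of the list as cumulus factors. MSX1 (ENSBTAG00000010875), a homeodomain repressor of tooth and craniofacial development that acts downstream of BMP signals, had 904 to 1336 CPM in the 19 oocytes with a median of 1025, and 0.220 to 43.7 CPM in their cumulus cells with a median of 3.12. Its paralog MSX2 (ENSBTAG00000013873) had 16.2 to 49.1 CPM in oocytes. In cumulus cells MSX2 had 14 counts in all 19 libraries together, with 0 counts in 11 of them and at most 4. ISL1 (ENSBTAG00000001241), a LIM homeodomain factor of motor neurons and of the heart fields, had 22.0 to 42.6 CPM in oocytes and 0.328 to 8.0 CPM in cumulus cells. For all 3 the oocyte was above its own cumulus cells in 19 of 19 complexes, and the ranges of the compartments did not overlap. The oocyte libraries were made from 1 oocyte each. The granulosa marker INHA had 0.0684 to 755 CPM in them, against 272 to 7308 CPM in cumulus libraries. The part of cumulus RNA in the oocyte levels was not tested. In the cumulus libraries fewer cells of a type and less RNA per cell cannot be told apart.

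**Figure D1:**
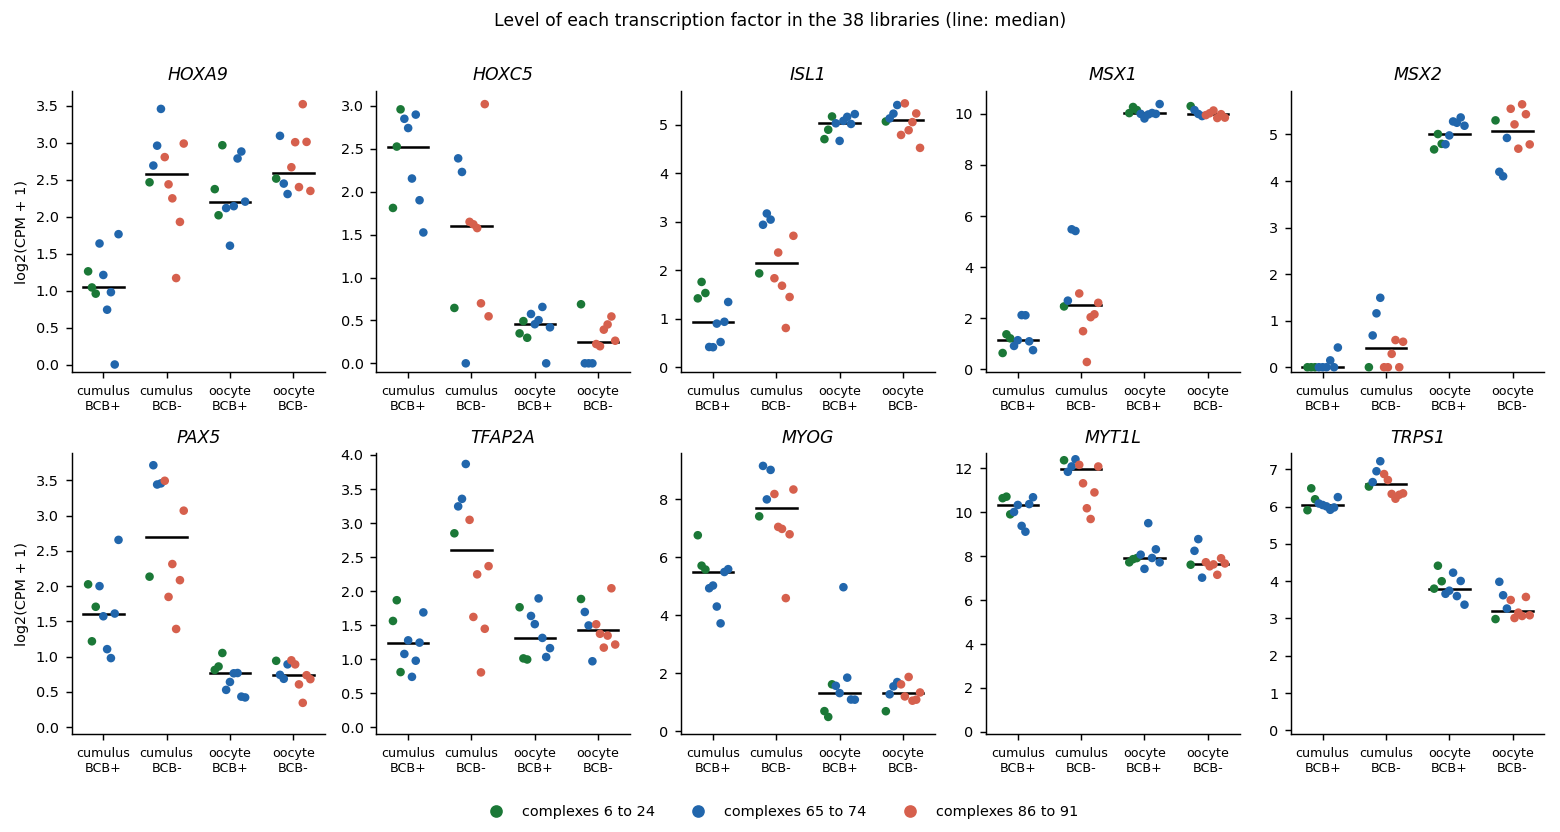
Level of each of the 10 factors as log2(CPM + 1) in the cumulus and oocyte libraries of BCB positive (BCB+) and BCB negative (BCB-) complexes, 1 point per library coloured by the run of complex numbers, with a line at the median of 9 or 10 libraries. MSX1, MSX2 and ISL1 lie far higher in oocytes, MYOG, MYT1L and TRPS1 lie higher in cumulus cells, and the BCB negative cumulus libraries spread widely for most factors.

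Between oocytes and cumulus cells, edgeR called 13127 of 14785 genes at an FDR under 0.01, and of all genes tested 46.5% were higher and 42.3% lower in oocytes, so a call is the usual outcome here and the sizes say more. A gene entered this fit when it passed the filter in either compartment. MSX1, ISL1, HOXA9, MYT1L and TRPS1 passed in both, whereas MSX2 passed through oocytes alone and MYOG, HOXC5, PAX5 and TFAP2A through cumulus cells alone, and the direction of these 5 was set by the filter, so their values are a description with no test. Of genes kept in both compartments 43.7% were higher and 41.2% lower in oocytes. MSX1 was higher in oocytes by 7.52 on the log2 scale (SE 0.43, FDR 1.31e-18) and ISL1 by 3.59 (SE 0.25, FDR 6.18e-17). The value of MSX2 was 7.44 (SE 0.32) and rests on 14 cumulus counts. MYOG (ENSBTAG00000006030), a basic helix-loop-helix factor that drives muscle differentiation, had a log2 fold change of -5.80 (SE 0.52). It had 12.2 to 568 CPM in cumulus cells and, leaving out 1 oocyte, 0.407 to 2.66 CPM in oocytes. HOXC5 (ENSBTAG00000009634), a HOX factor of the C cluster, had -3.81 (SE 0.36), and its oocyte counts were 0 to 14.

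MYT1L (ENSBTAG00000003540), a zinc finger factor that represses other lineages in neurons, had a log2 fold change, oocyte over cumulus, of -3.50 (SE 0.26, FDR 6.90e-16). It took up to 0.545% of all counts of a cumulus library and ran from 553 to 5449 CPM there, against 129 to 725 CPM in oocytes. TRPS1 (ENSBTAG00000017694), a GATA-type zinc finger repressor of cartilage and hair development, had -3.32 (SE 0.14, FDR 6.19e-24) and was below its own cumulus cells in the oocytes of all 19 complexes, with 58.8 to 148 CPM against 6.91 to 20.3. PAX5 (ENSBTAG00000012498), the factor of B lymphocyte identity, had -2.97 (SE 0.28), with oocyte levels of 0.268 to 1.07 CPM. In every complex its oocyte was below the cumulus cells.

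TFAP2A (ENSBTAG00000001250), a factor of neural crest and surface ectoderm, and HOXA9 (ENSBTAG00000053595), a factor of posterior axis and of blood progenitors, differed least between compartments. The log2 fold change of TFAP2A was -1.12 (SE 0.29), and it was -1.0 when the complex was fitted as a replicate block pairing each oocyte with its cumulus cells and -0.64 when counts were scaled to library totals alone. HOXA9 had 0.58 (SE 0.26, FDR 0.0308), which did not pass, and 0.55 with the replicate block (FDR 0.189), while library totals alone gave 1.04 (FDR 9.62e-05), no filter 0.74 (FDR 0.00867) and leaving out complexes 66 and 68 0.78 (FDR 0.00529). The 13014 genes called with the block were close to the 13127 without it. With TMM the median log2 fold change of all genes was 0.15, and with library totals alone it was 0.56, so values near that size depend on the scaling.

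**Figure D2:**
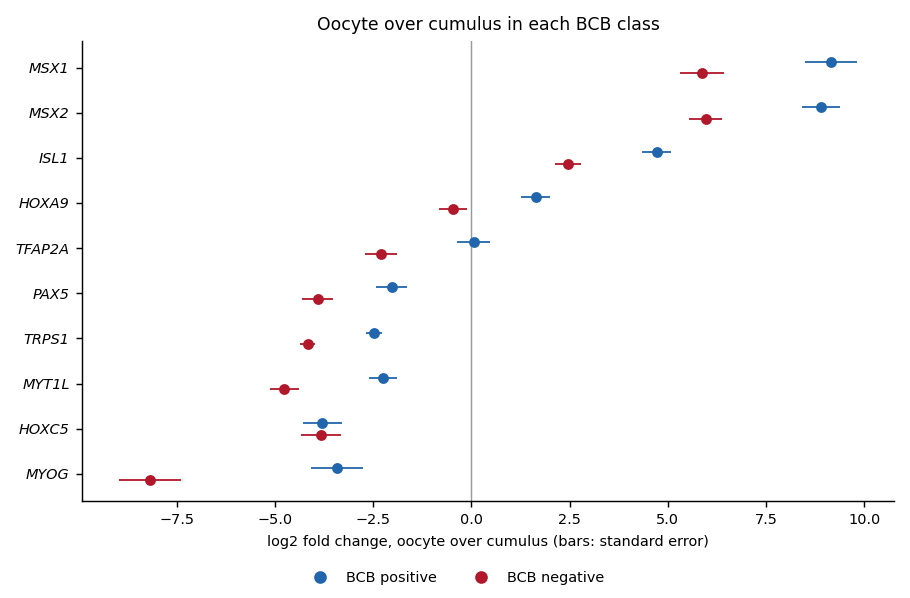
Log2 fold change of oocyte over cumulus for each factor (x axis) within BCB positive and within BCB negative complexes, with standard errors as bars, from 1 edgeR fit over 38 libraries. MSX2, MSX1 and ISL1 lie right of 0 in both classes, MYOG, HOXC5, MYT1L, TRPS1 and PAX5 lie left of 0 in both, and HOXA9 and TFAP2A lie nearest to 0 in BCB positive complexes.

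Within each BCB class, a contrast added after the data were seen and taken from the same fit, MSX1, MSX2 and ISL1 stayed above 0, and MYOG, HOXC5, MYT1L, TRPS1 and PAX5 stayed below 0. MSX1 had 9.16 (SE 0.67) in BCB positive and 5.87 (SE 0.55) in BCB negative complexes, and MYOG had -3.42 (SE 0.67) and -8.18 (SE 0.78). HOXC5 was alike in both, at -3.79 (SE 0.50) and -3.83 (SE 0.51). HOXA9 was 1.64 (SE 0.38) in BCB positive complexes, with the oocyte above its cumulus cells in 9 of 9, and -0.47 (SE 0.35) in BCB negative ones, with the oocyte above in 6 of 10. TFAP2A was 0.06 (SE 0.41) in BCB positive and -2.30 (SE 0.40) in BCB negative complexes. These values are a description with no test, since they and their difference contain the cumulus levels by which 8 of the factors were chosen.

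The cumulus comparison of BCB positive with BCB negative complexes is the one from which 8 of the factors were listed, and its values follow as a description. The level of MSX1 was 0.558 to 3.36 CPM in the 9 BCB positive libraries (median 1.2) and 0.220 to 43.7 CPM in the 10 BCB negative ones (median 4.80), a log2 fold change, BCB positive over BCB negative, of -3.40 (SE 0.79), which was -1.67 (SE 0.50) without complexes 66 and 68. MYOG had 12.2 to 107 CPM (median 44.0) and 23.1 to 568 CPM (median 212), a fold change of -3.24 (SE 0.59). HOXA9 had 0 to 2.39 CPM (median 1.06) and 1.25 to 9.97 CPM (median 4.98), with -2.59 (SE 0.47). The BCB negative medians lay above the BCB positive ones for each of these, and the ranges of the classes overlapped, as they did for all 10 factors. In 0.0162% of all genes every BCB negative library lay above every BCB positive one.

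TFAP2A had 0.671 to 2.65 CPM (median 1.37) in BCB positive and 0.749 to 13.6 CPM (median 5.18) in BCB negative cumulus cells, with a log2 fold change of -2.52 (SE 0.52). For ISL1 the levels were 0.328 to 2.38 CPM (median 0.912) and 0.749 to 8.0 CPM (median 3.49), with -2.41 (SE 0.53). MYT1L had 553 to 1673 CPM (median 1288) and 826 to 5449 CPM (median 4004), with -2.18 (SE 0.41). All 3 were spread more widely among BCB negative libraries, whose low end reached into the BCB positive range. PAX5 had 0.969 to 5.30 CPM (median 2.05) and 1.62 to 12.1 CPM (median 5.68), with -2.0 (SE 0.46). TRPS1 had the smallest change, with 58.8 to 88.9 CPM (median 64.9) and 73.1 to 148 CPM (median 96.0) and -1.14 (SE 0.21).

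Over all 12313 genes 69 (0.56%) were called in this contrast, 64 of them lower in BCB positive cumulus cells (0.52%), between 6 and 160 when 1 complex was left out, and 10 without complexes 66 and 68. The values of the 8 listed factors stayed below 0 under every alternative run, from -0.40 to -4.85, but their size followed the library total and the run. With log10 of the library total in the model they shrank to between -0.40 (TFAP2A, SE 0.40) and -1.33 (HOXA9, SE 0.54). Within complexes 65 to 74 they grew to between -1.78 (TRPS1, SE 0.21) and -4.85 (MSX1, SE 0.64). There, in CPM, the 3 BCB negative libraries lay above all 6 BCB positive ones for each of the 8, as for 1.09% of all genes. Of all genes 39.7% lay the other way. These shares leave out the TMM factors, which were 0.538 to 0.907 in these BCB negative and 1.11 to 1.28 in these BCB positive libraries. Shares with TMM factors were not computed. Marker lists were read beside these values. The summed level of 10 cumulus and granulosa markers (of 12 listed) was 10856 to 27120 CPM in BCB positive and 4546 to 14306 CPM in BCB negative cumulus cells, with 0 of the 10 genes called. All 13 mitochondrial protein-coding genes were lower in the BCB positive class, from -2.65 (CYTB) to -3.37 (ND3), and 11 of them were called. For neural crest and surface ectoderm, where TFAP2A is known, 3 of 13 markers had a symbol and summed to 9.20 to 62.0 CPM and 26.7 to 451 CPM, with KRT8 at -2.66 (FDR 0.018) and KRT18 at -3.78 (FDR 0.0151), the 2 kept genes, neither called. For neurons, where MYT1L is known, 2 of 16 had a symbol, NEFL and RBFOX3, and they summed to 0.479 to 1.06 CPM and 0.216 to 5.54 CPM in cumulus cells. Endothelial markers (3 of 7) summed to 1.73 to 6.88 CPM and 1.39 to 32.6 CPM, theca and stromal markers (3 of 12) to 206 to 533 CPM and 43.1 to 265 CPM, and the 1 named erythrocyte marker of 6 had 0.265 to 573 CPM and 1.69 to 190 CPM. The summed levels of these lists overlapped between the classes, and 0 of the 4 genes of these lists that were tested were called, STAR coming nearest with -1.70 (SE 0.45, edgeR FDR 0.0419). The part of such cells in the values of the factors was not tested.

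**Figure D3:**
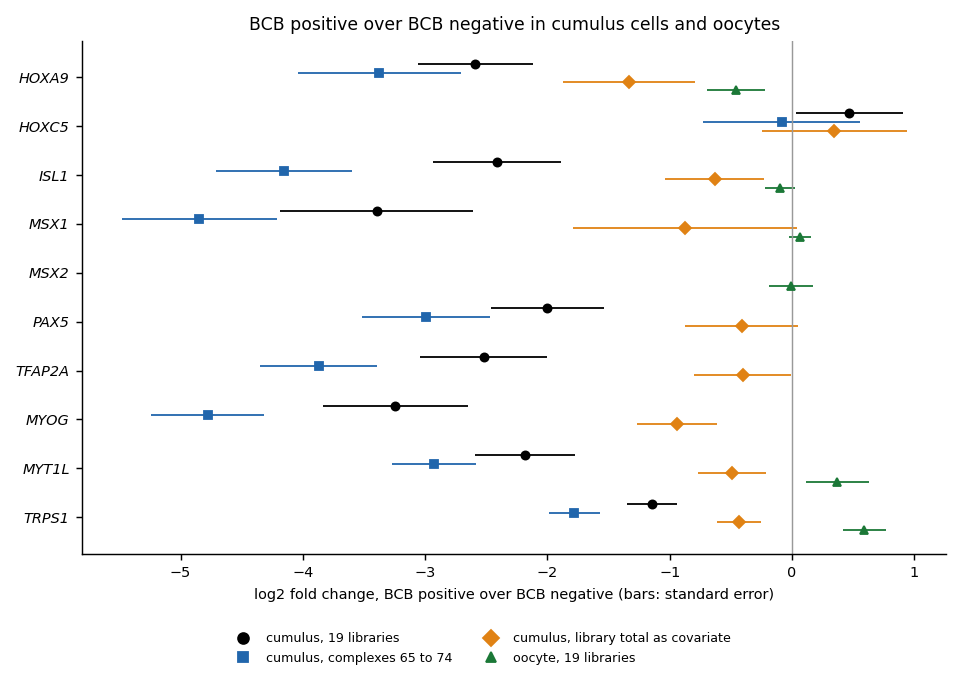
Log2 fold change of BCB positive over BCB negative complexes (x axis) with standard errors as bars, for cumulus cells in all 19 libraries, for complexes 65 to 74 alone, with the library total as a covariate, and for oocytes. Cumulus values of 8 factors lie between -1.14 and -3.40 in all libraries and nearer to 0 with the library total in the model, while oocyte values lie between -0.46 and 0.59.

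HOXC5 was not listed from this contrast and can be tested in it. Its counts were 9 to 60 in BCB positive (1.88 to 6.79 CPM, median 4.76) and 0 to 33 in BCB negative cumulus cells (0 to 7.12 CPM, median 2.03). The log2 fold change was 0.47 (SE 0.44), which did not pass edgeR's test (FDR 0.592), and it was -0.08 (SE 0.64) within complexes 65 to 74. MSX2 fell under the filter in cumulus cells, where it had 3 counts in the 9 BCB positive and 11 counts in the 10 BCB negative libraries, too few for a fold change.

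The genes beside HOXC5 in its cluster gave no call either. HOXC4 and HOXC6, named here for their position next to HOXC5, had cumulus log2 fold changes of 0.92 (SE 0.28, FDR 0.0708) and 0.59 (SE 0.24, FDR 0.179), and both were lower in oocytes than in cumulus cells, with log2 fold changes of -4.33 (SE 0.27) for HOXC4, which passed the filter in cumulus cells alone, and -4.15 (SE 0.24, FDR 5.39e-19) for HOXC6, which passed in both. Of 37 other HOX cluster genes 11 had a symbol. Symbols came from tables that the study ordered by significance, so whether a gene has a name depends on these libraries. Of these, 3 were kept in cumulus cells and 0 of them were called between the BCB classes, with a median of 0.59 against -0.01 for all genes. Between compartments, 8 of the 11 entered the fit through oocytes alone, so no count is read from them. HOXD1 (7.4), HOXD9 (6.57), HOXB7 (6.35) and HOXC13 (4.94) had the highest log2 fold changes, oocyte over cumulus. HOXC9, which passed the filter in both compartments as HOXC6 did, had 0.17 (SE 0.28, FDR 0.567).

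Relatives of the listed factors had a symbol in 6 of 33 cases only. Of these 6, 5 entered the compartment fit through oocytes alone, and GATA2 (9.42), PAX9 (8.86), DLX4 (6.73) and ISL2 (6.44) had the highest log2 fold changes, oocyte over cumulus, given with no test. TFAP2B, a paralog of TFAP2A that passed the filter in both compartments, was higher in oocytes by 4.13 (SE 0.23, FDR 1.72e-19), as were 40.7% of genes with a symbol kept in both. It was the only relative kept in cumulus cells, with -1.66 (SE 0.47, FDR 0.0527) between BCB classes. HOX cofactors, the PBX, MEIS and PKNOX proteins that bind DNA together with HOX proteins, had 4 named genes of 9: PKNOX1 (2.25) was higher and MEIS1 (-0.85, SE 0.26, FDR 0.00242) lower in oocytes, and PBX4, kept through oocytes alone, had 2.49. In the cumulus BCB contrast 0 of 3 kept cofactors were called, with PKNOX1, the most abundant by edgeR's average, at -0.08 (SE 0.19, FDR 0.854), PBX2 at -0.30 (SE 0.23, FDR 0.503) and MEIS1 at -1.22 (SE 0.31, FDR 0.0331).

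Of 18 target genes of the BMP and activin pathways, the first of which MSX1 and MSX2 answer to, 7 had a symbol. SMAD6, an inhibitory SMAD, was the 1 of 6 kept genes called lower in BCB positive cumulus cells (-1.70, SE 0.33, FDR 0.00844), where 0.846% of genes with a symbol were. BAMBI (-3.07, SE 0.67, FDR 0.0171), SMAD7 (-2.15, SE 0.45, FDR 0.0114) and GREM1 (-0.81, SE 0.50, FDR 0.40) were also below 0 but not called. ID2 (0.28) and FST (0.21) were above 0 and not called. The list's median was -1.25 against -0.01 for all genes. In the compartment contrast 4 of the 5 kept in both compartments were lower in oocytes, FST (-6.60), ID2 (-5.18), SMAD6 (-2.23) and GREM1 (-0.91, SE 0.28, FDR 0.00283), where 44.6% of such genes with a symbol were. None of the 10 named granulosa transcription factors was called between the BCB classes in cumulus cells. Their median was 0.48 against -0.01 for all genes, with RUNX1 lowest at -0.07. GATA4 and FOXL2, named after their values were seen, had 0.65 (SE 0.20, FDR 0.0736) and 0.69 (SE 0.31, FDR 0.225).

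In oocytes, no factor passed the test between the classes. Of 12753 genes 0 were called by edgeR's quasi-likelihood test (0%), 711 had an unadjusted p under 0.05, and DESeq2 called 1. For the 6 kept factors the log2 fold changes were -0.46 for HOXA9 (SE 0.24), -0.10 for ISL1 (SE 0.12), 0.06 for MSX1 (SE 0.09), -0.01 for MSX2 (SE 0.18), 0.37 for MYT1L (SE 0.25) and 0.59 for TRPS1 (SE 0.18), with FDR values between 0.843 and 0.997. TRPS1 was the 1 factor with an unadjusted p under 0.05, in the model fitted over all oocyte genes by edgeR (p = 0.0031). Its oocyte levels were 9.34 to 20.3 CPM (median 12.9) in BCB positive and 6.91 to 14.8 CPM (median 8.27) in BCB negative complexes, and within complexes 65 to 74 its fold change was 0.11 (SE 0.25). The levels of MSX1 were 904 to 1336 CPM and 914 to 1264 CPM, the tightest of the 10 on a relative scale. The value of MSX2 depended on the run. Within complexes 65 to 74 it had 26.7 to 40.2 CPM in BCB positive and 16.2 to 29.4 CPM in BCB negative oocytes (0.68, SE 0.22, FDR 0.119), while the BCB negative oocytes of complexes 86 to 91 had 24.9 to 49.1 CPM.

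The counts behind the cumulus levels were compared with the library totals. Over the 10 BCB negative libraries MYT1L had 5269 to 10690 counts, MYOG 185 to 937 and TRPS1 163 to 586. In the smallest BCB negative library, complex 68 with 1103200 counts, MYT1L had 6011 counts, and in the largest, complex 89 with 8013318, it had 6622. HOXA9 had 11 and 10 counts in these libraries, PAX5 11 and 13, and ISL1 8 and 6. MYOG had 569 and 185, and TFAP2A 15 and 6. Between these 2 libraries, which are an example and no test, the CPM of MYT1L was 5449 and 826 and that of MYOG 516 and 23.1. TRPS1, in contrast, had 163 and 586 counts, and HOXC5 had 0 and 5.

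**Figure D4:**
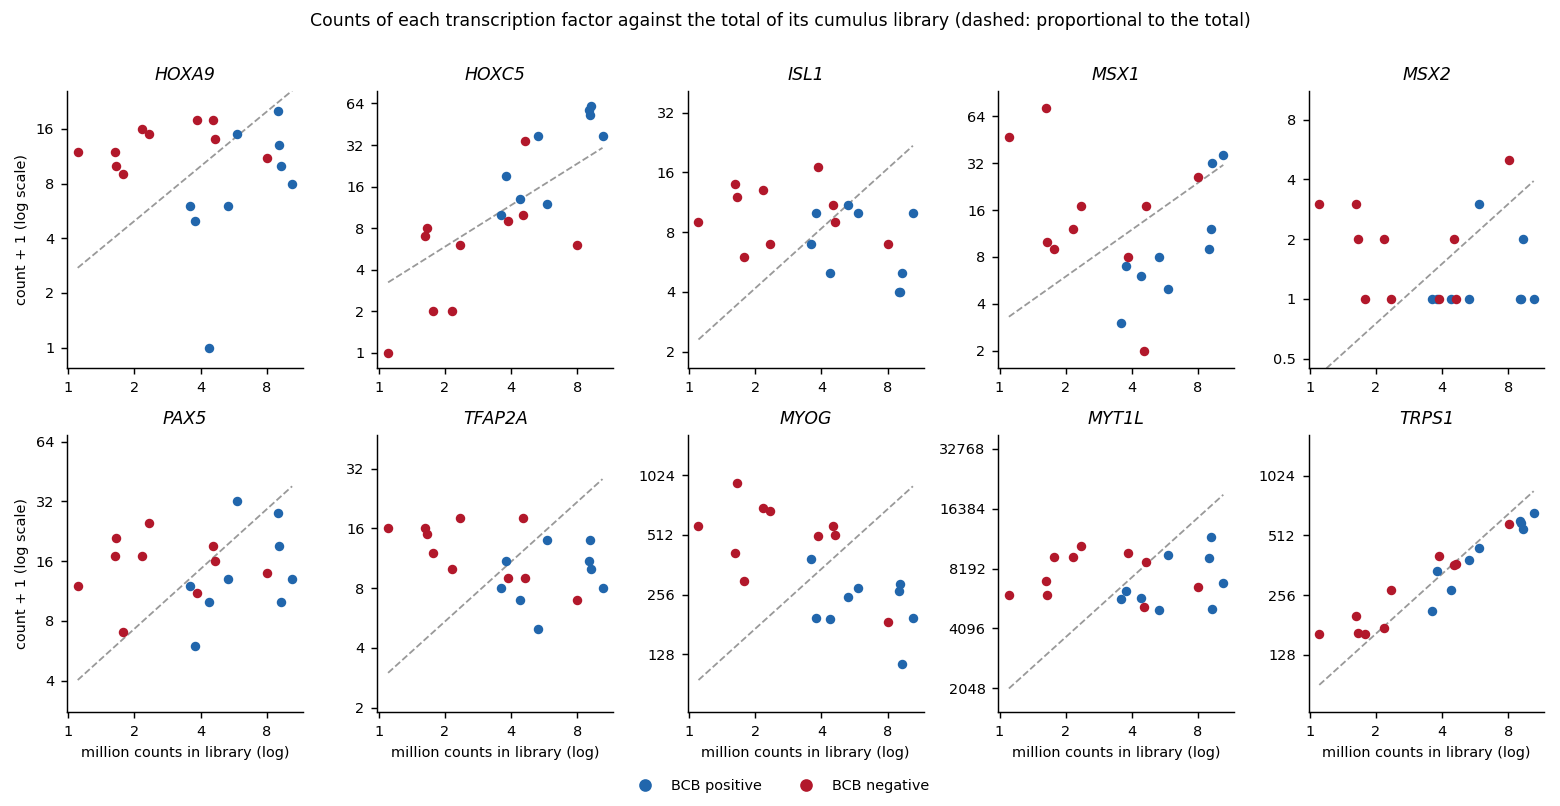
Count plus 1 of each factor (y axis, log scale) against the total count of its cumulus library (x axis, log scale), 1 point per library, with a dashed line for counts proportional to the total. TRPS1 and HOXC5 follow the dashed direction, whereas ISL1, PAX5, TFAP2A, MYOG and MYT1L show no such rise over a range of totals from 1103200 to 10430148 counts. HOXA9 shows no such rise over both classes together. Within the classes r of log2(HOXA9 count + 1) with log10 of the total was 0.593 (BCB positive) and 0.355 (BCB negative).

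A fit of log2 level on log2 of the library total beside the BCB class, chosen after the data were seen, gives this a value. With levels scaled to library totals alone, a coefficient of 0 means counts proportional to the total, and -1 means counts that do not change with it. MYOG had -1.32 per doubling of the total on that scale (SE 0.17, edgeR FDR 0.000147), MYT1L -0.88 (SE 0.14, FDR 0.00134) and TRPS1 -0.24 (SE 0.09, FDR 0.0463), and the median of all genes was 0.24. HOXC5, above 2 CPM in 13 libraries, had 0.30 (SE 0.34, FDR 0.533). The FDR tests a coefficient of 0, and no coefficient was tested against -1.

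TMM factors were smaller in small libraries, from 0.538 in complex 68 to 1.28 in complex 70, so with TMM, the scaling of the other tests, all coefficients are lower and count from a median of 0.00054 over 12313 genes, with 90% of genes between -0.46 and 0.33. MYOG then had -1.60 (SE 0.18, FDR 2.66e-05), the ninth lowest of all genes, MYT1L -1.14 (SE 0.15, FDR 0.000102) and TRPS1 -0.51 (SE 0.09, FDR 0.00404), which passed with TMM only. At an FDR under 0.01 with TMM 0.455% of all genes passed, every one of them with a negative coefficient, 12 of the 13 mitochondrial protein-coding genes among them.

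TFAP2A (-1.15 with totals alone, -1.42 with TMM), ISL1 (-1.12 and -1.37), MSX1 (-1.01 and -1.28), PAX5 (-0.82 and -1.09) and HOXA9 (-0.56 and -0.84) are given without a test, because they exceeded 2 CPM in 9 to 14 libraries, most of them BCB negative, so the libraries in which they were high decided that they entered the fit.

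In oocytes, where totals span a smaller range, the same coefficient lay between -0.41 (MYT1L, SE 0.24) and 0.24 (MSX2, SE 0.16), and no kept factor passed, where 0.0314% of all genes did (edgeR FDR 0.27 at the lowest, for MSX1, with -0.20 and SE 0.07). A fall of CPM with the total was thus measured for some factors in cumulus cells and was not detectable in oocytes, and the difference between compartments was not tested.

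The relation with the library total was then measured inside each class. Correlations of log2(CPM + 1), with totals scaled by TMM factors, were computed for the 9 kept factors with log10 of the total and with the mitochondrial share within each class, 36 relations in all. The total is also the denominator of CPM, which the points share. For HOXA9, ISL1, MSX1, PAX5 and TFAP2A, which passed the filter mostly through BCB negative libraries, values in that class are a description with no test. Adjusted p-values are over the other 26 relations, a choice made after the data were seen. Among the 10 BCB negative libraries r with the total was -0.947 for MYT1L (rho -0.794, permutation p = 8e-05, adjusted 0.00208), -0.922 for MYOG (rho -0.867, permutation p = 0.00016, adjusted 0.00208) and -0.9 for TRPS1 (rho -0.83, permutation p = 0.00029, adjusted 0.00221). Without the 2 libraries whose totals were farthest from the median, r was -0.896, -0.838 and -0.836 for these 3. HOXC5 did not pass, with r of 0.114 (rho 0.079, permutation p = 0.752, adjusted 0.782). The factors without a test had r between -0.966 (TFAP2A) and -0.787 (MSX1), and 1.24% of all 12313 genes had an r of -0.787 or lower, while the median of all genes was 0.046.

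Among the 9 BCB positive libraries totals spanned 2.91 times, against 7.26 times in the BCB negative class, and the difference between the classes was not tested. MYOG had r of -0.873 (rho -0.95, exact p = 0.000515, adjusted 0.00268), ISL1 -0.843 (rho -0.783, exact p = 0.00998, adjusted 0.0324) and MYT1L -0.785 (rho -0.833, exact p = 0.0165, adjusted 0.0475), and these 3 of 9 passed. TRPS1 did not, with -0.693 (rho -0.75, exact p = 0.0267, adjusted 0.0695), and 3.57% of all genes had an r as low as that. The value of ISL1 rests on 3 to 10 counts a library in this class, near the floor, with 1 library above 2 CPM. With library totals alone as the scaling, MYOG was the 1 factor that passed in this class (r -0.855, exact p = 0.00101, adjusted 0.00879), while MYT1L, MYOG and TRPS1 still passed in the BCB negative class. MSX1 had r of 0.518 in BCB positive libraries (rho 0.483, exact p = 0.168, adjusted 0.258), against -0.787 in BCB negative ones and -0.68 there without complexes 66 and 68.

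On raw counts, over 13 relations of log2(count + 1) with the total, TRPS1 rose with it in both classes (r 0.949 in BCB positive, exact p = 0.000215, and 0.949 in BCB negative, permutation p = 0.00011, both with an adjusted p of 0.0014), as did MSX1 in the BCB positive class (r 0.819, exact p = 0.00414, adjusted 0.0179), and 0 of the others passed.

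The mitochondrial share was read in the same way. In BCB negative cumulus libraries r with the share was 0.897 for MYT1L (rho 0.915, permutation p = 0.00034, adjusted 0.00221), 0.869 for MYOG (rho 0.915, permutation p = 0.00108, adjusted 0.00468) and 0.868 for TRPS1 (rho 0.782, permutation p = 0.00127, adjusted 0.00472), and -0.3 for HOXC5. Without the 2 libraries whose share was farthest from the median, these were 0.842, 0.788 and 0.642 for the first 3. The factors without a test lay between 0.695 (MSX1) and 0.914 (HOXA9), and 2.92% of all genes had an r of 0.695 or more. With library totals alone TRPS1 no longer passed, MYT1L (r 0.836) and MYOG (r 0.818) did, and r over the 9 factors had a median of 0.715 in place of 0.825. In BCB positive libraries 0 of 9 passed, with r between -0.636 and 0.593. The parts of the share and of the total in the levels of the factors were not separated.

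Pairs of factors were compared next, 36 in each class. Among BCB negative cumulus libraries the median r was 0.847, with HOXA9 and MYOG highest at 0.949. There only the 6 pairs among HOXC5, MYOG, MYT1L and TRPS1 were tested, for the reason given above, and adjusted p-values are over these and the 36 BCB positive pairs, 42 in all. MYOG with MYT1L had r of 0.897 (rho 0.83, permutation p = 0.00017, adjusted 0.0042), MYT1L with TRPS1 0.885 (rho 0.77, permutation p = 0.0002, adjusted 0.0042) and MYOG with TRPS1 0.863 (rho 0.842, permutation p = 0.00234, adjusted 0.0197), and the 3 pairs of HOXC5 did not pass. By rho MYT1L with TRPS1 did not pass (adjusted permutation p = 0.0904). Over all pairs of genes in these libraries 0.25% had an r of 0.863 or more. With library totals alone 1 of these 6 pairs passed.

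Among BCB positive libraries the median r was 0.176 and 6 of 36 pairs passed, with r of 0.779 or more in size. Over all pairs of the 12313 genes, 1.76% had an r of at least 0.779 and 1.56% one as far below 0. MYOG with MYT1L had 0.878 (rho 0.933, exact p = 0.000733, adjusted 0.0103), TFAP2A with MYT1L 0.866 (rho 0.9, exact p = 0.00328, adjusted 0.023) and ISL1 with TRPS1 0.779 (rho 0.75, exact p = 0.00593, adjusted 0.0356), the last of which did not pass by rho. The 3 negative pairs were all with MSX1. MSX1 with PAX5 had r of -0.874 (rho -0.933, exact p = 0.00142, adjusted 0.0149), with MYT1L -0.825 (rho -0.683, exact p = 0.00814, adjusted 0.0427) and with MYOG -0.79 (rho -0.55, exact p = 0.00986, adjusted 0.046). By rho MSX1 with MYT1L and with MYOG did not pass. In this class ISL1 had 3 to 10 counts a library, TFAP2A 4 to 13 and MSX1 2 to 35, so pairs with them carry a large counting error. Without the 2 libraries farthest from the median level of MSX1, MSX1 with PAX5 was -0.902, while the other two were -0.232 and -0.344 and so rested on those libraries.

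Once the library total was taken out of each factor within its class, as an alternative chosen after the data were seen, 0 of the 42 pairs passed in place of 9. The median r over all 36 pairs was then 0.215 among BCB negative and 0.0995 among BCB positive libraries. MSX1 with PAX5 in the BCB positive class had the largest size, with r of -0.865 (rho -0.917, exact p = 0.00173, adjusted 0.0728).

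**Figure D5:**
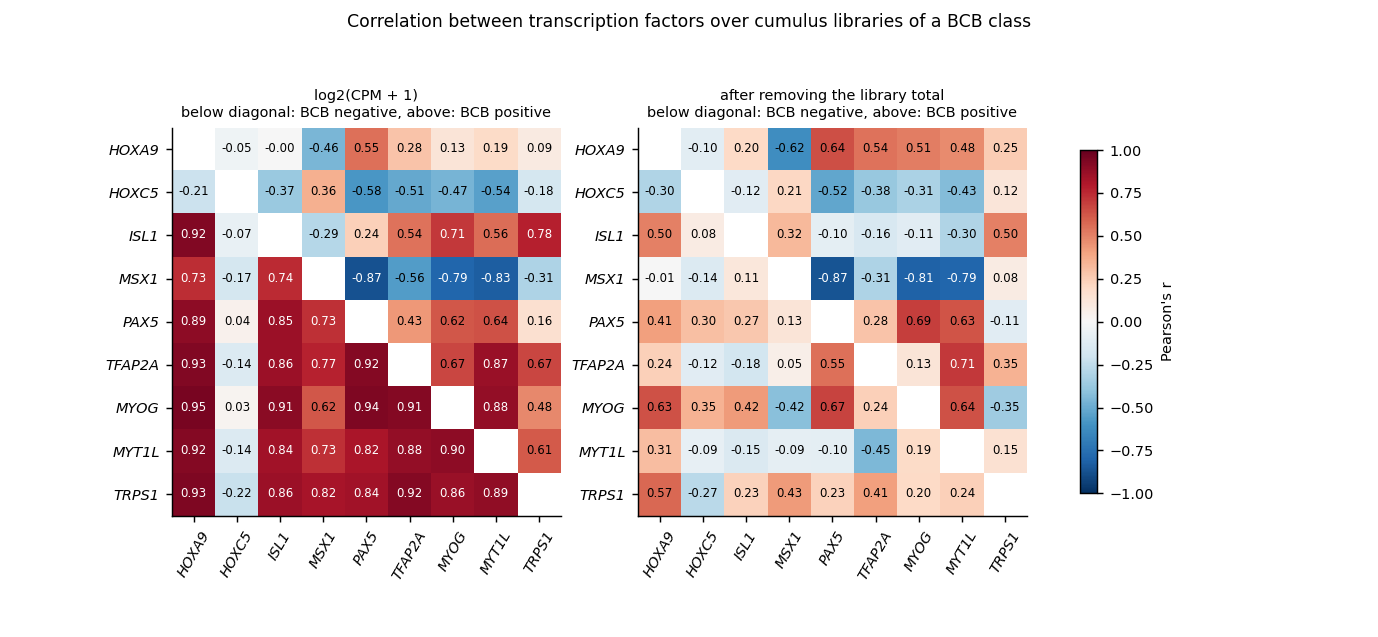
Pearson's r between the 9 factors kept in cumulus cells, over 10 BCB negative libraries below the diagonal and 9 BCB positive libraries above it, on log2(CPM + 1) at left and after removing the library total within the class at right. Blue is negative and red is positive. The BCB negative triangle is red at left apart from HOXC5, with a median of 0.847, and pale at right, with a median of 0.215, where MSX1 in the BCB positive triangle runs from -0.865 with PAX5 to 0.322 with ISL1 and no pair passed the test.

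By the same measure over the 19 cumulus libraries, as deviations from the class means and with no test, the 2 genes with a symbol most like each factor were taken. Of 13 such genes 11 belonged to 1 factor each. ADCYAP1R1 was among the closest 2 for 5 factors: TRPS1 (r 0.953), TFAP2A (0.922), ISL1 (0.889), PAX5 (0.879) and HOXA9 (0.848). KDM6B was among them for TFAP2A (0.926) and HOXA9 (0.855). MYT1L was most like ADPRM (0.979) and CYP2S1 (0.929), MYOG like ADAMTS5 (0.961) and ZSCAN26 (0.93), and MSX1 like ACCSL (0.889) and HBEGF (0.809). LPIN3 (0.921) followed for TRPS1, PPFIA4 (0.897) led for ISL1 and C7 (0.902) for PAX5. HOXC5 was most like RPS6KC1 (0.851) and CCDC120 (0.803). These libraries share their totals, which enter all of these values.

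No relation passed the test between a factor's level in an oocyte and its level in the cumulus cells of the same complex. Over the 19 complexes r was 0.04 for HOXA9, 0.27 for ISL1, -0.17 for MSX1, -0.22 for MYT1L and -0.35 for TRPS1, with permutation p-values of 0.884, 0.261, 0.49, 0.367 and 0.142 and adjusted values of 0.612 or more over these 5. Spearman's rho was 0.09, 0.33, -0.28, -0.26 and -0.41. Within classes, TRPS1 had 0.437 in BCB positive and 0.307 in BCB negative complexes, both positive where the pooled value was negative. HOXA9 had -0.484 and -0.675, both negative.

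Pairs of an oocyte gene with a cumulus gene that the study listed for these factors were recomputed on its scale, counts divided by the TMM factor alone, and after scaling to the library total. They were chosen for a high correlation and are a description. Oocyte MSX2 with cumulus GADD45A had r of 0.86 on that scale over 19 complexes and 0.58 after scaling to the total, and MSX2 with RND3 had 0.858 and 0.651. Cumulus TRPS1 changed sign: with oocyte VIM it had 0.814 and then -0.573, and with oocyte GSTA1 0.801 and then -0.623. On the first scale both lie under 0.85, the limit for listing a pair, and 0 of 12753 oocyte genes reached it with cumulus TRPS1 over the 19 complexes. Cumulus HOXC5 with oocyte SLC27A2 had 0.994 among the 9 BCB positive complexes and 0.75 after scaling, while the BCB negative complexes gave -0.415 and -0.631.

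For MSX1, 2 libraries stood apart. The factor in cumulus cells was highest in BCB negative complexes 66 and 68, at 43.7 and 41.7 CPM, and 0.220 to 6.84 CPM in the other 8 (median 3.98). Those 2 cumulus libraries also had the highest levels of the zona pellucida genes ZP2 (17.2 and 23.6 CPM) and ZP3 (48.0 and 24.5 CPM), which oocytes express, against at most 4.16 and 4.24 CPM in the other 17, where ZP2 was at 0 counts in 7. Without these 2 complexes MSX1 was higher in oocytes by 8.38 (SE 0.27, edgeR FDR 2.17e-25) in place of 7.52. The cumulus level of MSX1 was 4.28% and 4.32% of that of the own oocyte in these complexes, for ZP3 2.19% and 1.26%, and for ZP2 0.754% and 1.06%. Of 12 oocyte markers 3 had a symbol, and the summed level of ZP2, ZP3 and KIT was 24.8 to 133 CPM in BCB positive and 4.99 to 133 CPM in BCB negative cumulus cells, KIT being at 7 counts or more in all of them. The part of oocyte RNA in the cumulus levels of MSX1 was not tested.

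Some factors overlap other annotated genes, and whether counting used strand is not given in the sources used here. In RefSeq's ARS-UCD2.0 annotation, another build than that of the files, MYT1L overlaps 2 protein-coding genes and 2 long noncoding RNAs, ISL1 and TRPS1 each overlap 1 long noncoding RNA, and HOXC5 overlaps 1 microRNA gene. Reads of such genes cannot be told apart from those of the factor here. HOXA9, MSX1, MSX2, PAX5, TFAP2A and MYOG overlap no other gene in that annotation.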

How the data were processed

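Raw counts per gene were deposited for 19 oocyte and 19 cumulus libraries. The authors isolated RNA from single oocytes and their cumulus cells, made libraries from amplified cDNA, trimmed and aligned reads to ARS-UCD1.2 with HISAT2 2.1.0, removed duplicates and counted reads per Ensembl gene with featureCounts 1.6.0 (build and versions from the submitters' processing notes). No normalization was applied before deposit.

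Groups came from the labels. The members and lists were chosen with earlier results of these data known. Genes above 2 CPM in at least 9 libraries of a compartment were tested with edgeR 4.0.16 in R 4.3.3 (TMM, robust quasi-likelihood, Benjamini-Hochberg FDR 0.01); the compartment fit used all 38 libraries. DESeq2 1.42.0 served alternatives. SE is the absolute log2 fold change over the square root of F. Correlations used exact permutations for 9 complexes and 100000 draws otherwise, two-sided, in Python 3.11.15 with numpy 2.4.6, pandas 2.3.3 and scipy 1.17.1; figures used matplotlib 3.10.9. The tests recovered known changes in simulated data, in which edgeR's counts had the same spread for every gene, a simpler setting than these libraries.

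The text names the 10 factors, from each list the genes past the threshold (up to 4 by size) or else the most abundant, and the 2 genes with a symbol most like each factor. Symbols for 4934 identifiers came from the study's supplementary tables, which are shortened and ordered by significance. Oocyte and cumulus libraries are paired by complex number, which the labels give; over 10281 genes the deviations of the paired libraries from their group means correlated with r from -0.019 to 0.215 (median 0.0761), and the own cumulus library gave the highest r in 6 of 19 complexes. Gene lengths, the study's biotype filter and sequences were not used here. Small cumulus libraries limit precision: a factor with 10 counts carries a large counting error.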

Additional observations from a re-analysis of the deposited data

Results flagged for a closer look

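Of 40 groups of 9 or 10 libraries (10 factors, each in 4 groups), 5 had 1 library separated from the rest by more than the 95% limit of Dixon's ratio. Chance alone flags about 1 group in 20 for normally distributed values, which CPM values need not be, so no excess is read from this. All 5 lay at the high end of their group. Of these, 2 were the oocyte of BCB positive complex 71. MYOG was at 30.3 CPM there (435 counts), and 0.407 to 2.60 CPM in the other 8 BCB positive oocytes, and MYT1L was at 725 CPM (10413 counts) against 171 to 317 CPM. The cumulus library of the same complex had 195 counts of MYOG (18.7 CPM) and 6931 of MYT1L (665 CPM), so for both factors this was the 1 complex whose oocyte lay above its own cumulus cells. The granulosa marker INHA was at 9.88 CPM in that oocyte and at 755 CPM in the oocyte of complex 72, where MYOG was at 2.60 CPM. The mitochondrial share of that oocyte was 0.498%, the highest of the 19, with 0.307% next. The origin of these counts was not tested. Without complex 71 the oocyte log2 fold change of MYT1L between classes was 0.07 in place of 0.37.

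In BCB positive cumulus cells, MYOG was highest in complex 17, the smallest library of that class, at 107 CPM (385 counts), above 12.2 to 51.3 CPM in the other 8. PAX5 was highest in complex 74 at 5.30 CPM (31 counts) with 3.07 CPM next. MSX2 was also highest in complex 74, at 0.342 CPM, which is 2 counts and under the floor of 3.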

How the results depend on the processing

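The count of genes called between BCB classes in cumulus cells was the least stable value: 69 in the reported fit, 360 at an FDR of 0.05, 1732 with library totals alone (median log2 fold change of all genes 0.46), 365 with DESeq2, 223 when the likelihood ratio test without TMM and DESeq2 both had to call a gene, 164 with no filter, 115 with the run as a covariate, 2 with the library total as a covariate and 10 without complexes 66 and 68, an alternative chosen after seeing the data. Leaving out 1 complex gave 6 to 160 calls, and only complexes 87 and 90 moved the count by less than 1.5 times (63 and 90 calls); without complex 24 it was 6, without 17, 19, 70, 72 or 91 it was 7, without 69 or 71 it was 8, without 65, 86, 74, 68, 6, 73 and 66 it was 11, 13, 21, 29, 33, 37 and 40, and without 88 and 89 it was 138 and 160. In oocytes DESeq2 called 1 gene and every other setting 0. Genes called for the coefficient of the total were 56, and 736 with library totals alone, in cumulus cells, and 4 and 0 in oocytes. Pairs of factors past the threshold were 33, 31 with Spearman's rho, 22 with library totals alone and 0 after removing the total. Relations with the total and the mitochondrial share were 20, or 14 with library totals alone. These counts of pairs and relations include factors that passed the filter mostly through BCB negative libraries. Without them in that class, 9 of 42 pairs and 9 of 26 relations passed, and 5 and 6 with library totals alone. The block by complex, which pairs each oocyte with its cumulus cells, gave 13014 calls and changed no call of the 5 factors kept in both compartments, and the value of TFAP2A, given without a test, was -1.0. The same-factor relations between compartments stayed at 0 of 5 throughout.

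Of the 171 values of the 9 kept factors with 1 complex left out, all kept their direction in cumulus cells, and under the other alternatives 77 values stayed within the spread between libraries or on their side of the threshold, 24 moved by more and 1 turned. Direction turned for HOXC5 within complexes 65 to 74 (-0.083), and in oocytes for MSX1 with the run as covariate (-0.066) and within complexes 65 to 74 (-0.023) and for MSX2 with the run (0.31), with the library total (0.089), within complexes 65 to 74 (0.68) and in 9 of 19 fits without 1 complex (range -0.082 to 0.073). The reported values of these were 0.47 for HOXC5, 0.06 for MSX1 and -0.01 for MSX2, none of them called. Factors with about 10 counts a library are limited by depth, and a change in MSX2 in cumulus cells was not detectable at 14 counts in all.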
